A study of Homo sapiens with 24 samples.

Results

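Zinc finger (ZNF) genes on chromosome 19 were followed in HT29 cells, an established line of human colon adenocarcinoma. Members were all genes with a name made of ZNF and a number and a probe placed on chromosome 19 by the array's own annotation, which gave 368 probes of 246 genes among 50599 probes of 36337 names. A probe was kept where all 4 arrays of some group marked it well above background, and 263 probes of 190 members passed, as did 27957 probes of 20703 genes in all. Most genes of this kind encode DNA-binding proteins with a row of C2H2 zinc fingers behind a KRAB domain. The KRAB domain recruits TRIM28, which brings the histone methyltransferase SETDB1 and heterochromatin proteins to the bound DNA, often a retrotransposon. The genes arose by repeated local duplication, lie in clusters along chromosome 19, and share much of their finger sequence with their neighbours.

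Cells were exposed for 6 h, in serum-supplemented medium, to 1 of 6 conditions with 4 arrays each. Untreated cells (NT) were the control. C3/C2 was 30 mM propionate with 15 mM acetate, the short-chain fatty acids that Propionibacterium freudenreichii releases, and SN was the culture supernatant of that bacterium diluted to 1/2. TRAIL, a death receptor ligand, was given at 100 ng/ml with 2 µg/ml of anti-Flag antibody that cross-links it, alone or with either of the other treatments (TRAIL+C3/C2 and TRAIL+SN). All groups were the same line, and the replicates, numbered 1 to 4, came from 2 independent experiments done in duplicate. No label says which arrays share an experiment. Across groups, the deviations of arrays from their group means correlated above 0 in 58 of 60 pairs numbered 1 with 2 or 3 with 4, and in 1 of 120 pairs numbered 1 or 2 with 3 or 4. The p-values therefore measure the spread between these arrays, which may be technical. The fit counted 4 arrays per group as independent, and not 2 experiments, so its p-values may be too small. Replicate 1 of NT and replicate 1 of C3/C2 lay on slide 1, and the remaining 6 arrays of these groups on slide 2. The SN and TRAIL arrays lay on slide 3, and the arrays of both co-treatments on slide 4. C3/C2 against NT, SN against TRAIL, and TRAIL+SN against TRAIL+C3/C2 were therefore compared within slides. In every other comparison the slide and the treatment cannot be told apart.

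A level is given as log2 intensity of a probe less that of its array's 75th percentile, and a change as the difference of 2 group means on that scale. The 75th percentile ran from 453 to 1009 between arrays, and between 175 and 189 of the 190 members were well above background on an array. The members were widely detected, with 165 of 190 well above background on all 24 arrays, and 3 (ZNF114, ZNF221 and ZNF491) on no NT array. The 10 colon epithelial markers looked for (EPCAM, CDH1 and KRT20 among them) were above background on all 24 arrays. Of 6 fibroblast markers, COL1A2, COL3A1 and DCN were above background on none and LUM on all 24. The leukocyte markers PTPRC, CD14 and CD68 and the endothelial markers PECAM1, CDH5 and VWF were above background on all 24 arrays as well, and the part of other transcripts in these signals was not tested.

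The share of ZNF genes of chromosome 19 that rose lay below the share of all genes that rose in each comparison with NT, and the share that fell lay above that of all genes in all but C3/C2. The second order depended on the processing. ZNF genes of other chromosomes also rose in lower shares, and fell in higher shares, than all genes in each comparison with NT. A call needed a change of at least 2-fold and an adjusted p under 0.05 (limma, Benjamini-Hochberg over all genes tested). With C3/C2, 15 of 190 members (7.89%) rose and 8 (4.21%) fell, where 13.4% of all genes tested rose and 6.18% fell. With SN, 14 members (7.37%) rose and 22 (11.6%) fell, against 14.2% and 9.75% of all genes. With TRAIL, 0 rose and 15 (7.89%) fell, against 0.749% and 2.18%. At an adjusted p under 0.05 without the 2-fold limit, 26 members (13.7%) lay above NT with TRAIL and 48 (25.3%) below it, against 20.3% and 13.1% of all genes, and at an unadjusted p under 0.05 with the 2-fold limit 0 lay above. With TRAIL+C3/C2, 18 rose (9.47%) and 23 fell (12.1%), against 16.2% and 7.94%. With TRAIL+SN, 15 rose (7.89%) and 28 fell (14.7%), against 16.1% and 10.1%. All 5 comparisons used the same 4 NT arrays. In such bulk samples, fewer cells of a kind and less RNA per cell cannot be told apart.

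The median change over the 190 members lay below that of all genes in each comparison with NT. It was -0.05 for C3/C2 (all genes, 0.08), -0.18 for SN (all genes, -0.02) and -0.05 for TRAIL (all genes, 0.03). In the co-treatments it was -0.12 for TRAIL+C3/C2 (all genes, 0.10) and -0.22 for TRAIL+SN (all genes, 0.04). The 243 tested ZNF genes of other chromosomes had medians of -0.12, -0.15, 0.03, -0.12 and -0.12 in the same order, and the 1165 other genes tested on chromosome 19 had 0.21, 0.18, 0.15, 0.38 and 0.26. In those other genes of the chromosome 238 rose and 48 fell with C3/C2, and in the ZNF genes elsewhere 24 rose and 36 fell. Of the ZNF genes elsewhere 14.8% fell with C3/C2, 16.5% with SN and 3.29% with TRAIL. In the co-treatments 17.3% (TRAIL+C3/C2) and 18.1% (TRAIL+SN) of them fell. The shares that rose were 9.88%, 9.47%, 0%, 9.88% and 10.3% in the same order. In all but TRAIL alone they fell in higher shares than the ZNF genes of chromosome 19. The lists were not compared by a test. With normexp background correction 6 members rose and 4 fell with C3/C2, and 7 rose and 11 fell with SN. The share that fell was then 0.526% with TRAIL (all genes, 0.836%) and 3.16% with TRAIL+C3/C2 (all genes, 3.72%), so that it no longer lay above that of all genes. The balance of calls also depended on how arrays were scaled, in members and in all genes. Scaled to their medians, 9 members rose and 24 fell with C3/C2, 8 and 42 with TRAIL+C3/C2, and 10 and 41 with TRAIL+SN, while the median of all genes moved from 0.08 to -0.22 with C3/C2. The shares of all genes that fell were then 11.3%, 15.1% and 13.9%, against 12.6%, 22.1% and 21.6% of members, so that with C3/C2 the order turned. With spike-in probes as the reference, 11 rose and 17 fell with C3/C2, 4 and 80 with TRAIL+C3/C2, and 7 and 63 with TRAIL+SN. Of all genes 9.01%, 28.5% and 23.8% fell, against 8.95%, 42.1% and 33.2% of members. Quantile normalization gave 12 and 15 with C3/C2, 14 and 32 with TRAIL+C3/C2, and 11 and 35 with TRAIL+SN. Of all genes 7.82%, 11% and 12.1% fell, against 7.89%, 16.8% and 18.4% of members.

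**Figure D1:**
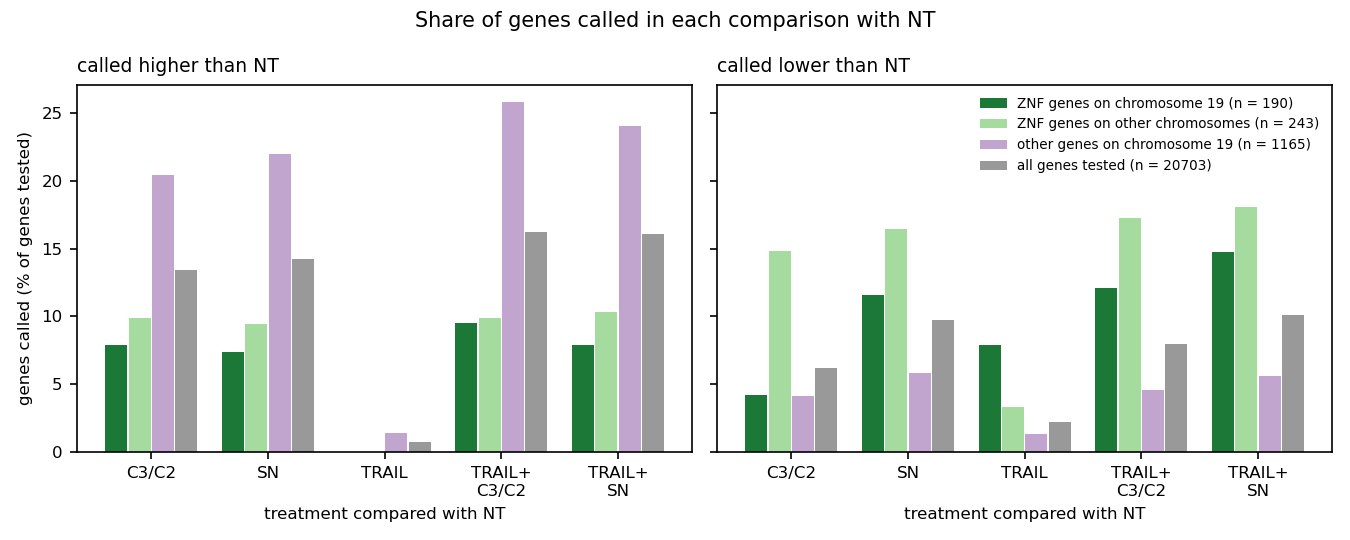
Share of genes called higher (left) and lower (right) than NT, in % of the genes tested, for the ZNF genes of chromosome 19 (n = 190), ZNF genes of other chromosomes (n = 243), other genes of chromosome 19 (n = 1165) and all genes tested (n = 20703). The bars for the ZNF genes of chromosome 19 are shorter than those for all genes on the left in each treatment, and with TRAIL alone 7.89% of them were lower against 2.18% of all genes.

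The 3 neighbours ZNF555, ZNF556 and ZNF77, at the tip of the short arm, stood higher with SN and with both co-treatments. ZNF555 (probe chr19:2853940-2853999, hg19, + strand) lay at -1.04, -0.92, -1.02 and -1.10 on the NT arrays and at 0.09, 0.20, 0.32 and 0.19 on the C3/C2 arrays. On the SN arrays its level was 0.47, 0.41, 0.69 and 0.63, and on the TRAIL arrays -0.89, -0.97, -0.70 and -0.73. All C3/C2 and SN arrays lay above all NT and TRAIL arrays, and every SN array lay above every C3/C2 array. ZNF555 rose by 1.22 with C3/C2 (log2, SE 0.07, limma adjusted p = 6.3e-12) and by 1.57 with SN (adjusted p = 8.5e-14), and in the co-treatments it rose by 1.24 (TRAIL+C3/C2) and 1.51 (TRAIL+SN). The change with TRAIL alone was 0.20 (adjusted p = 0.046), under the 2-fold limit. Within slide 3, SN lay 1.37 above TRAIL (adjusted p = 8e-13).

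ZNF556 (chr19:2878321-2878380, hg19) was dimmer, at -4.05, -4.28, -4.44 and -4.98 on the NT arrays and -2.97, -2.85, -2.79 and -2.71 on the C3/C2 arrays. With SN it lay at -2.73, -2.92, -2.27 and -2.52. It was well above background on 2 of the 4 TRAIL arrays. The groups C3/C2 and SN did not overlap NT, and the change was 1.61 with C3/C2 (SE 0.23, limma adjusted p = 3.8e-06) and 1.83 with SN (adjusted p = 5.5e-07). ZNF77 (chr19:2933434-2933493, hg19) lay between -0.32 and -0.26 on the NT arrays, between 0.64 and 0.71 with C3/C2 and between 1.02 and 1.49 with SN. It rose with SN by 1.48 (SE 0.09, limma adjusted p = 8.1e-12). With C3/C2 its change was 0.97 (adjusted p = 8.9e-09), just under the 2-fold limit. ZNF57, the fourth member tested in this neighbourhood, had differences from NT of 0.63 with C3/C2 and 0.76 with SN and was not called. A second probe, which for ZNF555 overlaps the first, gave 1.12 and 1.35 for ZNF555 and 0.90 and 1.42 for ZNF77, with C3/C2 and SN.

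The promoters of these 3 neighbours are shown because each holds the CCAAT box more times than the promoter of any other matched member. The sequences are from RefSeq (GRCh38.p14) and run from 250 bases before to 50 bases after the gene's start. Capitals mark CCAAT, the core of the box bound by NF-Y, and GGGCGG, a GC box, on the strand shown.
ZNF555 (chr19:2841225-2841524, + strand): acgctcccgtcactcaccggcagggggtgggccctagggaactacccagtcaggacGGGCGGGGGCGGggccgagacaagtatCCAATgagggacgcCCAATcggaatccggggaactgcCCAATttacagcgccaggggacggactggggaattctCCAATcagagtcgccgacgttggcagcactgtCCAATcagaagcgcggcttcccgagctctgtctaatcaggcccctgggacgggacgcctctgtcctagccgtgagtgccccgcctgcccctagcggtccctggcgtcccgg
ZNF556 (chr19:2867085-2867384, + strand): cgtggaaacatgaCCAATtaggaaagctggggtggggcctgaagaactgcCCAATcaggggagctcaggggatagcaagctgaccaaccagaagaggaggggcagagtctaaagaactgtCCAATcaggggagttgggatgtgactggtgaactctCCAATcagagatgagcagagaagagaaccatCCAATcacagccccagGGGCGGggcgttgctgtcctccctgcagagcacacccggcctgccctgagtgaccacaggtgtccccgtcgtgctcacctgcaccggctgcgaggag
ZNF77 (chr19:2944922-2945221, - strand): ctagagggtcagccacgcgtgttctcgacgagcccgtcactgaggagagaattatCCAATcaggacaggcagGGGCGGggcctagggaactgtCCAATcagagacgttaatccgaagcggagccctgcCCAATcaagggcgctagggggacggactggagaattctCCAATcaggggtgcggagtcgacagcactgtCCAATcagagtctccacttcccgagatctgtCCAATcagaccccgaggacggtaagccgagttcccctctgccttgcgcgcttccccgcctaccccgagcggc
Counted on both strands, CCAAT occurred 5 times in the promoter of ZNF555, 5 times in that of ZNF556 and 6 times in that of ZNF77. A promoter was matched by the RefSeq transcript of the probe, or else by symbol, for 161 of the 190 members. These 3 were the members with 5 or more matches (1.86% of 161), a number that 98 of all 27305 promoters (0.359%) reached, and the median was 1 match in members and 0 in all promoters. The count of 5 was chosen after the values were seen. In the 158 members with fewer matches the change ranged from -1.83 to 2.17 with C3/C2 and from -3.27 to 2.54 with SN. A match of letters is a description and not a binding site.

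**Figure D2:**
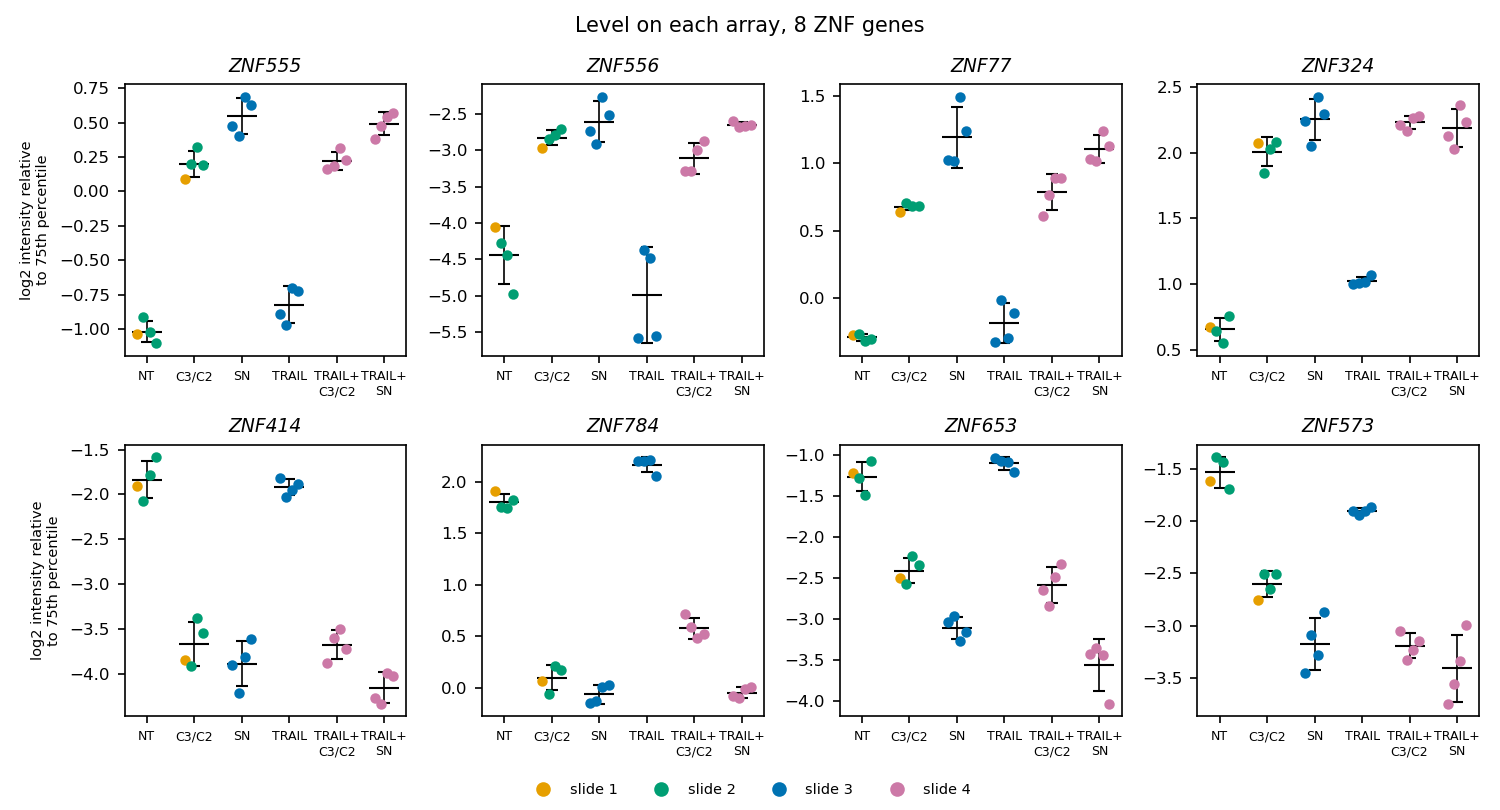
Level of 8 ZNF genes on each of the 24 arrays, as log2 intensity less that of the array's 75th percentile, by group; points are arrays coloured by slide, and the black bars are the mean and SD of 4 arrays. ZNF555, ZNF556, ZNF77 and ZNF324 lie higher in the 4 groups with C3/C2 or SN than in NT and TRAIL, and ZNF414, ZNF784, ZNF653 and ZNF573 lie lower there.

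Other members that rose with C3/C2 or SN were spread along the chromosome. ZNF324 (chr19:58984466-58984525, hg19) lay at 0.67, 0.64, 0.55 and 0.76 in NT, at 2.07, 1.84, 2.03 and 2.08 with C3/C2 and at 2.24, 2.05, 2.42 and 2.30 with SN. The NT arrays did not overlap either treatment. ZNF324 rose by 1.35 with C3/C2 (SE 0.08, limma adjusted p = 2.4e-12) and by 1.60 with SN, and its neighbours ZNF324B and ZNF584 rose by 1.09 and 1.13 with C3/C2. A second tested probe of ZNF584 gave 0.33 with C3/C2 and -0.03 with SN and was not called. ZNF433 rose by 1.70 with C3/C2 and 1.35 with SN (SE 0.10), and ZNF211 by 1.63 and 1.17 (SE 0.09). ZNF296 lay between -3.29 and -2.95 in NT and between -1.24 and -0.62 with TRAIL+C3/C2. It rose by 2.17 with TRAIL+C3/C2 (SE 0.13, limma adjusted p = 3.5e-12), by 1.59 with TRAIL+SN and by 1.43 with SN, and C3/C2 alone gave 0.80, which was not called.

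The 3 members that no NT array measured above background appeared with C3/C2 and SN, and their folds are lower bounds, set against the lowest level well above background on each NT array. ZNF114 (chr19:48790154-48790213, hg19) lay at -7.52, -7.54, -7.74 and -7.56 in NT and at -4.74, -4.36, -3.94 and -3.71 with C3/C2. It passed the filter through C3/C2 alone, a group where it was high, so no test is given. Against NT the bound was at least 2.9-fold higher for C3/C2, at least 2.2-fold for SN and at least 2.42-fold for TRAIL+C3/C2. With TRAIL+SN it was well above background on no array, and no fold is given. ZNF221 was at least 2.67-fold higher with C3/C2, SN gave a bound of 2.32-fold, and the bounds were 2.87-fold and 2.34-fold in TRAIL+C3/C2 and TRAIL+SN. ZNF491 was at least 1.72-fold higher with C3/C2 and 2.21-fold with SN, and its NT arrays spread from -7.97 to -5.76. All 3 were below background on every TRAIL array.

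Among members that fell, ZNF414 and ZNF784 had the largest falls with C3/C2. ZNF414 (chr19:8576824-8577309, hg19) lay at -1.90, -2.07, -1.78 and -1.58 in NT, at -3.84, -3.91, -3.38 and -3.54 with C3/C2 and at -3.90, -4.22, -3.81 and -3.61 with SN. It fell by 1.83 with C3/C2 (SE 0.13, limma adjusted p = 1.4e-10) and by 2.05 with SN, and in the co-treatments it fell by 1.84 (TRAIL+C3/C2) and by 2.32 (TRAIL+SN). Its change with TRAIL alone was -0.08. ZNF784 (chr19:56132108-56132167, hg19) lay at 1.91, 1.75, 1.74 and 1.82 in NT, at 0.07, -0.06, 0.21 and 0.17 with C3/C2 and at -0.15, -0.13, 0.01 and 0.02 with SN. Its TRAIL arrays (2.19, 2.20, 2.21 and 2.06) all lay above NT, by 0.36 on average. ZNF784 fell by 1.71 with C3/C2 (SE 0.07, limma adjusted p = 5.5e-15) and by 1.87 with SN, and SN lay 2.23 below TRAIL within slide 3.

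With C3/C2, ZNF653 fell by 1.14 and ZNF573 fell by 1.07 (SE 0.13 each). With SN, ZNF653 fell by 1.84 and ZNF573 fell by 1.64. In TRAIL+SN the falls were of 2.29 for ZNF653 and 1.88 for ZNF573. SN lay below C3/C2 by 0.69 for ZNF653 (adjusted p = 0.00022) and by 0.57 for ZNF573 (adjusted p = 0.0012), both under the 2-fold limit. ZNF614 fell by 1.26 and 1.12 and ZNF628 by 1.22 and 1.43, with C3/C2 and SN. A second tested probe of ZNF614 gave -0.77 with C3/C2 and -0.85 with SN and was not called. ZNF649, a KRAB protein described as a repressor of growth-factor signalling to transcription, was well above background on all NT arrays and on no C3/C2 or SN array. It passed the filter through NT alone, so no test is given. The bound was at least 1.6-fold lower for C3/C2 and at least 1.42-fold lower for SN. ZNF529 lay between -4.32 and -3.53 in NT and between -6.77 and -4.84 with TRAIL+C3/C2, where it fell by 2.00 (SE 0.32), and was measured above background on 1 of those 4 arrays.

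C3/C2 against NT and SN against TRAIL share no array, and both lie within slides. In SN against TRAIL, 18 members were higher with SN and 13 lower, where 13.1% of all genes were higher and 8% lower. With the array median as the scale these were 11 and 18, with the spike-in probes 31 and 7, with quantile normalization 15 and 14, and with normexp background 3 and 6. Of all genes, the shares higher and lower in the same order were 10.2% and 12.5%, 20% and 4.13%, 11.8% and 8.79%, and 6.83% and 4.55%. Of the members higher with C3/C2 than NT, 12 were also higher with SN than TRAIL, which is 80% of the 15 and 66.7% of the 18. ZNF555, ZNF556, ZNF433, ZNF211 and ZNF324 were among them. Of those lower, 6 were in both lists (ZNF414, ZNF653, ZNF573, ZNF649, ZNF628 and ZNF784), 75% of the 8 and 46.2% of the 13, and 0 members were called in opposite directions. Among the members in both lists, ZNF114, ZNF221, ZNF491 and ZNF878 passed the filter only through groups where they were high. ZNF649 passed through NT alone. These shares thus rest in part on members that the filter took by the values compared. No such overlap is given for all genes. Across the 190 members, which are not independent, the 2 sets of changes had Pearson r = 0.879 and Spearman rho = 0.815, and 80% had the same sign. Over all 20703 genes r was 0.873 and 81% had the same sign, and the points share their probes and the base composition of those probes.

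With TRAIL alone, 15 members fell: ZNF90, ZNF729, ZNF99, ZNF728, ZNF675, ZNF726, ZNF709, ZNF442, ZNF788, ZNF878, ZNF812, ZNF345, ZNF546, ZNF233 and ZNF417. ZNF90, by its probe at chr19:20236287-20236346 (hg19), had the largest change with TRAIL. The gene's other probes (chr19:20228630-20228689 and chr19:20231608-20231667) were well above background on 0 arrays of each group. All values of ZNF90 therefore rest on 1 probe. That probe lay at 0.75, 1.65, 2.07 and 2.32 on the NT arrays and at 0.56, 1.81, 2.38 and 2.34 on the C3/C2 arrays. It lay at -1.60, -1.45, -1.81 and -1.43 with SN and at -1.73, -1.77, -1.38 and -1.71 with TRAIL. All 16 arrays of slides 3 and 4 lay below all 8 arrays of slides 1 and 2, and replicate 1 of NT and of C3/C2, which lay on slide 1, was the lowest of its group. ZNF90 fell by 3.35 with TRAIL (SE 0.32, limma adjusted p = 1.2e-07) and by 3.27 with SN, and its change with C3/C2 was 0.08 (adjusted p = 0.85). The SN and TRAIL arrays differed by 0.07 (adjusted p = 0.85).

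ZNF675, whose product is known to bind the signalling adaptor TRAF6, lay at -0.07, 0.29, 0.21 and 0.13 in NT, at -0.53, -0.27, -0.12 and -0.03 with C3/C2 and at -1.02, -0.93, -0.92 and -0.92 with TRAIL. It fell by 1.09 with TRAIL (SE 0.11, limma adjusted p = 1.5e-07). ZNF729 fell by 1.13 with TRAIL (SE 0.18) and ZNF417 by 1.24 (SE 0.15). In each of these 3 genes NT replicate 1 was the lowest NT array and C3/C2 replicate 1 the lowest C3/C2 array. ZNF442 fell by 1.19 with TRAIL (SE 0.10) and lay between -4.54 and -4.28 there, between -3.46 and -3.00 in NT and between -3.86 and -3.50 with SN. For 6 of the 15 (ZNF812, ZNF878, ZNF788, ZNF728, ZNF345 and ZNF546) no TRAIL array was well above background, and the fall is a lower bound. Of these, ZNF812, ZNF788 and ZNF546 passed the filter through NT alone, where they were high. The bounds were at least 1.97-fold for ZNF728, 1.82-fold for ZNF546, 1.41-fold for ZNF788, 1.4-fold for ZNF812 and 1.09-fold for ZNF345, with none for ZNF878, which was measured on 1 NT array.

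Slides 1 and 2 could be set against each other within NT and within C3/C2 for these 15 members. Their level on slide 1 less the mean on slide 2 had a median of -0.43 within NT, with 15 of 15 below 0, and of -0.40 within C3/C2, with 14 of 15 below 0. Over all 190 members these medians were -0.06 and -0.11, and over all genes 0.03 and -0.00. Slide 1 held 1 array of each group, its replicate 1, so slide and replicate number cannot be told apart in these medians. Against NT arrays on other slides, the median change of the 15 was -1.24 for TRAIL, -1.11 for SN and, in the co-treatments, -1.24 (TRAIL+C3/C2) and -1.26 (TRAIL+SN). With members below background in a group set at their bound these medians were -1.07 (TRAIL), -0.85 (SN), -0.69 (TRAIL+C3/C2) and -0.96 (TRAIL+SN). Within slides the median was 0.02 for C3/C2 against NT and 0.07 for SN against TRAIL. Each array of slides 1 and 2 lay above each array of slides 3 and 4 for 6 of the 15. The 15 were picked as lower on TRAIL than on NT arrays, which sets part of this order. No such share is given for all members or all genes, so the count is a description. Slide and treatment cannot be told apart in these falls. Without NT replicate 1 the count stayed at 15. With another background correction (normexp) ZNF90 alone was called, with a change of -3.06.

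**Figure D3:**
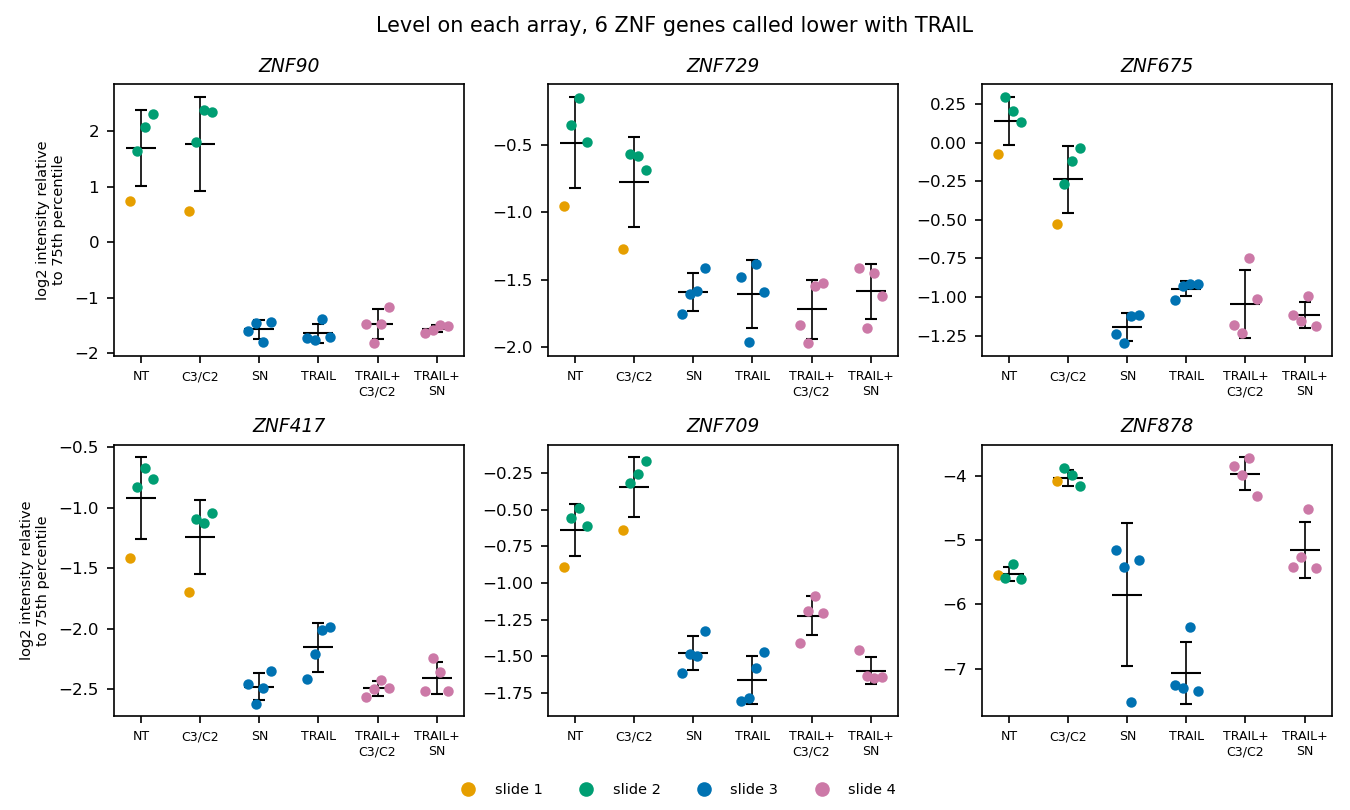
Level of 6 ZNF genes called lower with TRAIL on each of the 24 arrays, as log2 intensity less that of the array's 75th percentile; points are arrays coloured by slide, and the black bars are the mean and SD of 4 arrays. For ZNF90, ZNF729, ZNF675 and ZNF417 the arrays of slides 3 and 4 lie together below those of slides 1 and 2, and the slide 1 array is the lowest of NT and of C3/C2. ZNF878 lies higher with C3/C2 and TRAIL+C3/C2 than in the other groups.

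SN against C3/C2 shares no array with TRAIL against NT but sets the same slides against each other. In it 8 members were lower with SN, where 4.41% of all genes were lower, and 0 were higher (1.28% of all genes). At an adjusted p under 0.05 without the 2-fold limit 33 members (17.4%) lay higher and 62 (32.6%) lower, against 21.7% and 25.7% of all genes. With the array median as the scale 1 was called higher and 6 lower (3.16%, all genes 3.05%). With normexp background 2 were lower (1.05%, all genes 1.54%), and with a filter on the mean level 4 of 178 (2.25%, all genes 3.34%). The 8 were ZNF90, ZNF788, ZNF878, ZNF726, ZNF812, ZNF417, ZNF709 and ZNF442. All 8 were among those lower with TRAIL than NT, which is 100% of the 8 and 53.3% of the 15. ZNF788, ZNF812 and ZNF878 were well above background on no SN or TRAIL array. Of these, ZNF788 and ZNF812 passed the filter through NT alone, and ZNF878 through groups with C3/C2. No such overlap is given for all genes, so these shares are a description. ZNF90 was 3.35 lower with SN than with C3/C2 (limma adjusted p = 4.5e-08), and ZNF788 at least 1.74-fold lower. Across the 190 members, not independent of each other, the changes in these 2 comparisons had r = 0.75 and rho = 0.531, and over all genes r = 0.518. In the 243 ZNF genes of other chromosomes r was 0.521.

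Some probes of these members hold the letters of the zinc finger repeat. On the coding strand a finger of this class often reads TGNGGNAA, then any base, then GC, and the linker that joins successive fingers reads GGAGAGAA, then any base, then CC (N is any base). The probes below are shown because they hold these stretches, the first 6 in members lower with TRAIL and ZNF433 in a member that rose with C3/C2. Each is the 60-base sequence of the array (hg19), and capitals mark either motif.
ZNF709 (chr19:12575431-12575490, - strand): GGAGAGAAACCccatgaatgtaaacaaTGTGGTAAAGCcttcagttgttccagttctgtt
ZNF729 (chr19:22499726-22499785, + strand): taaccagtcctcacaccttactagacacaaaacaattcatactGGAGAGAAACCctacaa
ZNF675 (chr19:23836834-23836893, - strand): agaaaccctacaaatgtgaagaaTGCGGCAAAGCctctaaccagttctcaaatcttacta
ZNF728 (chr19:23158803-23158862, - strand): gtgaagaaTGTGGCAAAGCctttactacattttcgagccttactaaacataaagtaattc
ZNF546 (chr19:40521518-40521577, + strand): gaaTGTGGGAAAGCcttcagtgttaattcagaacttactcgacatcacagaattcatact
ZNF788 (chr19:12224463-12224522, + strand): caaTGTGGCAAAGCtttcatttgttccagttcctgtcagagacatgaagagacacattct
ZNF433 (chr19:12125780-12125839, - strand): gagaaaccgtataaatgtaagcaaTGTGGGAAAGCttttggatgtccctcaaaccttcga
On the probe strand, 33 of the 263 tested member probes (12.5%) held either motif, as did 20 of 355 tested probes of ZNF genes elsewhere (5.63%) and 92 of all 27957 tested probes (0.329%). On the other strand 0 member probes held either, and 31 of all tested probes did. A match of letters does not show that a probe also binds other transcripts.

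The probe that stood for the gene held a finger motif in 10 of the 15 members lower with TRAIL (66.7%) and in 13 of the 175 others (7.43%). Of the 33 motif probes, 12 were called lower with TRAIL, and of the 230 without a motif 8 were. The median change with TRAIL was -0.61 for motif probes and -0.03 for the rest. For SN these medians were -0.50 and -0.13, for TRAIL+C3/C2 -0.59 against -0.07, and for TRAIL+SN -0.61 against -0.18. Within slides they lay closer together, at -0.18 and -0.03 for C3/C2 against NT and 0.02 and -0.07 for SN against TRAIL. The median GC content was 40% in both kinds of probe. In ZNF genes of other chromosomes the medians with TRAIL were -0.17 and 0.02, over 20 and 335 probes. There 5 of the 20 motif probes and 5 of the 335 others were called lower with TRAIL. The motifs were chosen with the members lower with TRAIL known, so these shares are a description.

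For 16 members both kinds of probe were tested, and the change with TRAIL was the lower of the 2 for the motif probe in 12 of them, and the change with C3/C2 in 8. ZNF709 shows the difference within a gene. Its motif probe, shown above, lay at -0.89, -0.56, -0.49 and -0.61 in NT, at -0.64, -0.31, -0.26 and -0.17 with C3/C2 and at -1.81, -1.79, -1.58 and -1.47 with TRAIL. Its changes were 0.29 (C3/C2), -0.85 (SN) and -1.03 (TRAIL). For the other probe of ZNF709 the log2 differences were 1.47, 1.27 and -0.25 in the same order. In ZNF493 the difference with TRAIL was -1.42 for the motif probe and -0.30 for the mean of its other probes. The part of shared finger sequence in the levels of these probes was not tested.

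**Figure D4:**
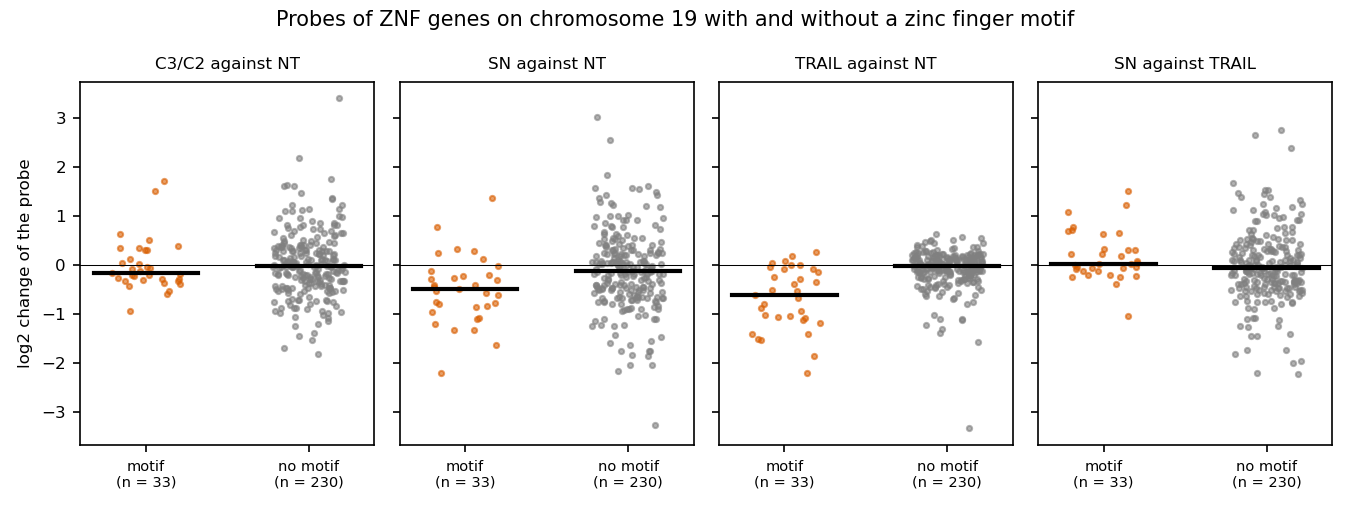
Log2 change of each tested probe of the ZNF genes of chromosome 19 in 4 comparisons, for 33 probes that hold a finger or linker motif and 230 that do not; the black line is the median. With TRAIL against NT the medians are -0.61 and -0.03, and in SN against TRAIL, which lies within a slide, 0.02 and -0.07.

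The members form 16 runs along the chromosome with under 1 Mb between neighbouring probes, of which 15 held tested members. The medians of runs are given less the median of all genes in the same comparison, a difference that a shift of a whole array leaves as it is. It does not take out a slide difference that touches some probes and not others. In all comparisons with NT but C3/C2, slide and treatment cannot be told apart in these medians and calls. The run of 24 tested members from ZNF101 to ZNF254 (chr19:19790730-24312487, hg19), next to the centromere on the short arm, lay at -0.24 for C3/C2, -0.58 for SN and -0.60 for TRAIL, and at -0.64 and -0.54 in TRAIL+C3/C2 and TRAIL+SN. In it 0 members were called with C3/C2, and 6 fell with TRAIL (ZNF90, ZNF729, ZNF99, ZNF728, ZNF675 and ZNF726), where 2.18% of all genes fell. The run of 14 from ZNF565 to ZNF573 (chr19:36673459-38229314) lay at -0.33, -0.49, -0.33, -0.77 and -0.70 in the same order. The run of 25 from ZNF653 to ZNF791 (chr19:11596540-12740240) lay at 0.29, -0.14, -0.16, 0.29 and 0.17. In this run 5 members rose with C3/C2 and 1 fell, where 13.4% of all genes rose and 6.18% fell. Of the 5, ZNF491 and ZNF878 passed the filter only through groups where they were high, so the count is a description. Without a filter on dim probes this run lay at -0.012 and -0.13 in TRAIL+C3/C2 and TRAIL+SN, and the run from ZNF565 at 0.074 with C3/C2 and -0.083 with SN. The 2 largest runs, of 43 members near the end of the long arm (ZNF628 to ZNF446) and of 32 (ZNF175 to ZNF331), lay between -0.18 and 0.11 and between -0.40 and -0.10. Members of a run are neighbours and not replicates, and runs were not tested.

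**Figure D5:**
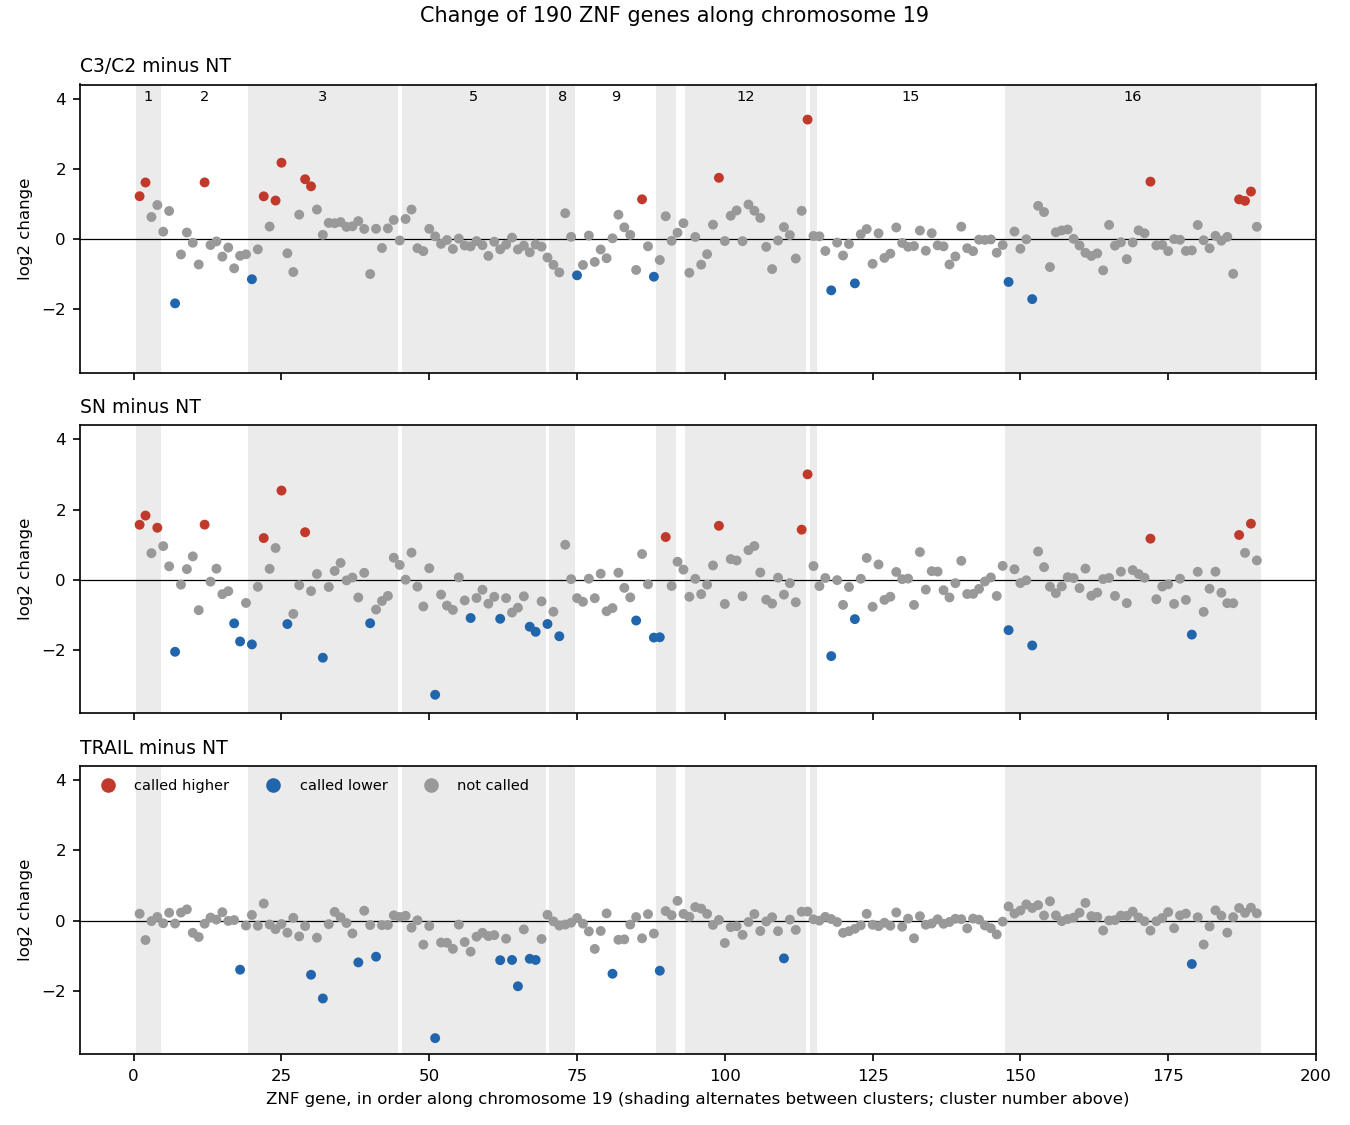
Log2 change of the 190 tested ZNF genes, in order along chromosome 19, with C3/C2, SN and TRAIL against NT; grey shading alternates between runs of neighbouring genes, and red and blue points were called higher and lower. ZNF555, ZNF556 and ZNF77 stand at the far left above 0 with C3/C2 and SN, and blue points of the run numbered 5 appear with SN and TRAIL and not with C3/C2. The SN and TRAIL arrays lay on another slide than the NT arrays.

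TRAIL+SN and TRAIL+C3/C2, compared within slide 4, differed by the threshold in 5 members, and none of these calls was left with normexp background. Higher with TRAIL+SN were ZNF529 by 1.05 and ZNF333 by 1.02 (SE 0.17, limma adjusted p = 8.6e-05), 2 of 190 where 0.976% of all genes were higher. Lower were ZNF878 by 1.19, ZNF114, at least 1.58-fold, and ZNF788, 3 of 190 where 2.56% were lower. ZNF788 was well above background on 1 TRAIL+C3/C2 array and on no TRAIL+SN array, and no fold is given for it. With normexp background 0 members were called in either direction, with a filter on the mean level 0 were lower, and leaving out each array in turn gave 0 to 2 higher and 2 to 5 lower. ZNF878 lay at -5.54, -5.59, -5.37 and -5.61 in NT, at -4.08, -3.87, -3.99 and -4.16 with C3/C2 and at -3.84, -3.98, -3.72 and -4.32 with TRAIL+C3/C2. The 2 groups with C3/C2 overlapped no other group, and in NT it was measured above background on 1 array. It passed the filter through those 2 groups alone, so no test is given. Its level differed from NT by 1.50 with C3/C2 and by 1.56 with TRAIL+C3/C2, values that rest on NT arrays near background, and by 0.37 with TRAIL+SN. It was the sole member called higher than NT in some comparisons and lower in another.

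Of 10 tested members listed for a known role, ZNF649 (above) and ZNF224 were called in a comparison with NT and the other 8 were not. ZNF91 and ZNF93, which repress the SVA and L1 retrotransposons, had differences of -0.19 and 0.29 with C3/C2 and of -0.47 and 0.33 with SN. ZNF274, which brings SETDB1 to the ends of other zinc finger genes, had differences of -0.26 and -0.25 with C3/C2 and SN. ZNF350, a partner of BRCA1, had changes of -0.47 (C3/C2), -0.71 (SN) and -0.35 (TRAIL), and of -0.72 and -0.84 in TRAIL+C3/C2 and TRAIL+SN, all under the 2-fold limit. ZNF146, made of fingers with no KRAB domain, had a difference of -0.74 with C3/C2 (limma adjusted p = 5.3e-07) and -0.63 with SN. ZNF420, which binds p53, had changes of 0.69 (C3/C2), 0.20 (SN) and -0.55 (TRAIL). ZNF331, an imprinted gene, had differences of -0.17 and 0.40, and ZNF473, a factor of histone messenger RNA processing, of 0.09 and 0.39, with C3/C2 and SN. ZNF224, a KRAB repressor that works with WT1, had differences of 0.81 with C3/C2 and 0.96 with SN and rose by 1.09 with TRAIL+C3/C2 (SE 0.10, limma adjusted p = 6.2e-09) and 1.18 with TRAIL+SN. ZNF382 was on the array and did not pass the filter.

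RNA was also measured for 19 listed genes of the proteins through which KRAB zinc fingers act, and all 19 were tested. In C3/C2, 0 rose and 2 fell, in SN 0 and 1, in TRAIL 0 and 0, and in the co-treatments 1 and 3 (TRAIL+C3/C2) and 1 and 1 (TRAIL+SN). Of all genes, 13.4% rose and 6.18% fell with C3/C2, 14.2% and 9.75% with SN, and 0.749% and 2.18% with TRAIL. In the co-treatments these shares were 16.2% and 7.94% (TRAIL+C3/C2) and 16.1% and 10.1% (TRAIL+SN). The 19 genes were not compared with all genes by a test. FAM208A, which encodes TASOR, the scaffold of the HUSH silencing complex, fell by 1.43 with C3/C2 (SE 0.07, limma adjusted p = 7.6e-14) and by 1.86 with SN, and it fell by 1.61 in TRAIL+C3/C2 and by 1.90 in TRAIL+SN. Its change with TRAIL was -0.26, and within slide 3 SN lay 1.60 below TRAIL. SMARCAD1, a chromatin remodeller that binds TRIM28, fell by 1.20 with C3/C2 and 1.29 with TRAIL+C3/C2, and its change with SN was -0.94. SETDB1 had differences of -0.93 with C3/C2 (adjusted p = 1.1e-12) and -0.76 with SN, under the 2-fold limit, and fell by 1.06 with TRAIL+C3/C2. CHD4, the remodeller of the NuRD complex, had differences of 0.59 and 0.91 with C3/C2 and SN and rose by 1.13 and 1.04 in TRAIL+C3/C2 and TRAIL+SN. TRIM28 itself had changes of 0.05 (C3/C2), 0.13 (SN) and 0.32 (TRAIL).

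Of the 161 promoters matched, 68.9% held GGGCGG on either strand against 44.6% of all 27305 promoters, 55.3% held CCAAT against 35.7%, and 1.86% held TATAAA, the TATA box, against 12%. CCGGAAGT, a site of ETS factors, stood in 33 (20.5%) against 4.44% of all. It stood in 2 of 17 members called higher and 1 of 27 called lower in some comparison with NT, and in 30 of 118 not called (25.4%). The median number of CpG pairs was 20 in members and 14 in all promoters. For 63 members 2 or more probes were tested, and in the 5 comparisons with NT 0 of them had probes called in opposite directions. Some but not all probes of a member were called in 8 members with C3/C2, 14 with SN and 7 with TRAIL, and all of them in 1, 3 and 0.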

How the data were processed

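HT29 RNA was labelled with Cy3 and hybridised by the authors to 24 single-colour Agilent human arrays. The deposited intensity of each spot was extracted by the scanner's software (Agilent Feature Extraction); per the file headers it subtracts spatial trend and background and does not normalize between arrays; the mean signal and local background, also deposited intensity values, served an alternative. The authors' own series table holds these intensities divided by each array's median (largest deviation 0.000852%), and its 24 flag columns were not used. The authors used Rosetta Resolver, whose steps were not repeated.

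Control spots and outlier spots (190 to 315 per array) were left out. Spots of a probe were averaged as log2, less the array's 75th percentile over 58717 spots. A gene was its probe with the highest mean level. The 6 groups were fitted together over 24 arrays by limma 3.58.1 in R 4.3.3 (18 residual degrees of freedom, median SE of a difference from NT 0.11), with Benjamini-Hochberg adjustment over 20703 genes. The smallest p of an exact permutation test of 4 against 4 arrays is 0.0286. Arrays of a group correlated with r of 0.993 to 0.998 over genes. No spot was saturated, and the number of arrays limits the precision. A fold is a bound where a group lay below background on all its arrays, taken against the lowest level well above background on each array.

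The members, gene lists and tests were chosen with earlier results of these data known. Named were members of textbook roles, the 3 largest rises and falls in each comparison with NT among called members whose arrays did not overlap NT, the 2 largest in the other comparisons, the member of each run with the largest mean change, and 19 KRAB partners; members named outside this rule were chosen after their values were seen. Alternatives were scaling, background, filter, probe choice, threshold, slide or replicate number as a block, the gap between runs, and each array left out. Same-numbered arrays of different groups correlated in their deviations (median r 0.20, 57 of 60 pairs over 0.1), and no label says what a number marks. Tested on simulated data for SN against NT (20686 genes), the fit recovered 49 of 50 genes changed by 2 and 46 of 50 changed by -1.5 on the log2 scale, and called 5 unchanged genes. The simulated arrays were independent and held no slide difference or shared experiment. The simulation therefore cannot show how many calls in these data stem from those. Promoters came from RefSeq (GRCh38.p14), probe coordinates from the files (hg19). Figures were drawn with matplotlib 3.10.9.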

Additional observations from a re-analysis of the deposited data

Results flagged for a closer look

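For 9 combinations of a named gene and a group, 1 of the 4 arrays lay far from the other 3 by Dixon's criterion, which chance meets in about 1 in 20 groups; 150 groups were looked at. Values are log2 levels. ZNF146 lay at 0.934 on NT replicate 3 and between 0.748 and 0.765 on the other NT arrays. ZNF114 lay at -7.739 on NT replicate 3 (others -7.56 to -7.52), below background on all 4. ZNF784 lay at 2.056 on TRAIL replicate 4 (others 2.19 to 2.21) and ZNF491 at -6.816 there (others -7.38 to -7.30). On TRAIL replicate 3, ZNF90 lay at -1.384 (others -1.77 to -1.71) and ZNF878 at -6.352 (others -7.36 to -7.26). ZNF878 lay at -7.517 on SN replicate 3 (others -5.41 to -5.16). ZNF529 lay at -4.896 on SN replicate 1 (others -4.22 to -4.15), and ZNF653 at -4.027 on TRAIL+SN replicate 4 (others -3.44 to -3.35).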

How the results depend on the processing

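Counts are of members higher and lower, in the order of C3/C2, SN and TRAIL against NT, the co-treatments TRAIL+C3/C2 and TRAIL+SN against NT, then SN against C3/C2, SN against TRAIL, and TRAIL+SN against TRAIL+C3/C2. As reported they were 15 and 8, 14 and 22, 0 and 15, 18 and 23, 15 and 28, 0 and 8, 18 and 13, and 2 and 3. Without a minimum fold change they were 56 and 63, 50 and 83, 26 and 48, 56 and 80, 51 and 93, 33 and 62, 54 and 63, and 23 and 50. With normexp background they were 6 and 4, 7 and 11, 0 and 1, 8 and 6, 7 and 10, 0 and 2, 3 and 6, and 0 and 0. With the array median, C3/C2 gave 9 and 24, TRAIL+C3/C2 8 and 42, SN against C3/C2 1 and 6, and SN against TRAIL 11 and 18. With the spike-in probes, C3/C2 gave 11 and 17, TRAIL+C3/C2 4 and 80, TRAIL+SN 7 and 63, SN against C3/C2 3 and 5, and SN against TRAIL 31 and 7. With quantile normalization, C3/C2 gave 12 and 15 and SN against C3/C2 1 and 6. With a filter on the mean level, 8 were lower with TRAIL, 4 in SN against C3/C2 and 0 in TRAIL+SN against TRAIL+C3/C2. Without a filter, 1 was higher with TRAIL and 2 in SN against C3/C2. With the median of a gene's probes, 1 was higher in TRAIL+SN against TRAIL+C3/C2. Within slide 2, C3/C2 gave 15 and 10, and with slide as a fixed block 15 and 8. The causes of these moves were not tested.

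Leaving out each array in turn gave ranges of 15 to 16 and 8 to 11, 14 to 16 and 21 to 26, 0 to 0 and 13 to 15, 17 to 21 and 21 to 25, 13 to 15 and 25 to 29, 0 to 1 and 7 to 11, 16 to 18 and 12 to 14, and 0 to 2 and 2 to 5. With the replicate number as a replicate block the counts were as reported: 15 and 8, 14 and 22, 0 and 15, 18 and 23, 15 and 28, 0 and 8, 18 and 13, and 2 and 3. Same-numbered arrays correlated by 0.06 to 0.47.

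Of the values of named members under the alternatives, 4068 kept their direction and their side of the threshold, 39 fell below it, 27 passed it and 6 turned. All 6 turned with normexp: ZNF649 to 0.40 and 0.27 in TRAIL+C3/C2 and TRAIL+SN, ZNF728 to 0.16 and 0.16, ZNF788 to 0.13 with TRAIL+SN, and ZNF878 to 0.029 with TRAIL, in groups where no array of the member lay well above background. Medians of runs less that of all genes moved most without a filter: run 2 (ZNF557 to ZNF846) to -0.59 and -0.48 in TRAIL+C3/C2 and TRAIL+SN, run 3 (from ZNF653) to -0.012 and -0.13, run 5 (from ZNF101) to -0.77 with TRAIL+SN, run 9 (from ZNF565) to 0.074 with C3/C2 and -0.083 with SN, run 12 (ZNF575 to ZNF296) to 0.10 with C3/C2 and to -0.19 and -0.33 in TRAIL+C3/C2 and TRAIL+SN, and run 15 (from ZNF175) to -0.16 with C3/C2. With normexp, run 2 moved to -0.022 and run 12 to -0.23 with TRAIL+SN, and run 9 to -0.16 with SN, -0.10 with TRAIL, and -0.32 and -0.24 in TRAIL+C3/C2 and TRAIL+SN. Gaps of 0.5 and 2 Mb gave 18 and 8 runs with tested members in place of 15. Bounds and dim members rest on signal near background, where the order of values is uncertain.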
